A study of Mus musculus with 3 samples.

Results

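The 10 genes examined here, Pla2g4a, Ptgs1, Ptgs2, Ptges, Ptger2, Ptger4, Hpgd, Alox5, Alox5ap and Ltc4s, belong to the pathway that makes, senses and clears prostaglandin E2 and makes leukotrienes. They were taken by gene name from the 36870 gene names of the array, and every probe that carried their names was kept, 17 in all. The cells were RAW264.7 macrophages, a mouse line transformed by a virus, and RNA was hybridised to 1-colour Agilent arrays with 1 array per group. In the LPS group, cells received no bacteria and were then challenged for 3 h with LPS (lipopolysaccharide, the TLR4 agonist from bacterial cell walls). In the LOC1 and LOC3 groups, cells were first exposed to Lactiplantibacillus plantarum LOC1 or LOC3, strains from tea leaves, and then received the same LPS challenge. The labels give 12 h for the bacteria and the methods 24 h, and the dose of LPS is 50 ng/mL in the methods and 100 ng/mL elsewhere in the study. The LPS challenge was shared by all 3 arrays, and unchallenged macrophages enter only as the reference of the log2 ratios that the authors deposited. With 1 array per group no SD between cultures, test or p-value can be given, and each comparison below sets 1 RNA sample against another.

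Arachidonic acid is cut from membrane phospholipids by the phospholipase encoded by Pla2g4a. The cyclooxygenases, constitutive Ptgs1 and inducible Ptgs2, turn it into prostaglandin H2, and the synthase encoded by Ptges turns that into prostaglandin E2, which acts through the receptors Ptger2 and Ptger4 and is inactivated by Hpgd. The lipoxygenase Alox5, fed by the membrane protein Alox5ap, starts the leukotrienes from the same fatty acid, and Ltc4s adds glutathione to make leukotriene C4. In macrophages, induction of Ptgs2 is a well-known response to LPS.

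Alox5, Ptger4 and Ptgs1 were lower with both strains than with LPS alone, by 8.37-fold, 5.99-fold and 2.95-fold with LOC1 and by 5.94-fold, 4.08-fold and 2.62-fold with LOC3. Of 9 measured members these 3 were lower by 2-fold or more with each strain and 0 were higher, where 3.83% of 20018 genes were lower and 2.48% higher with LOC1 and 3.22% of 19789 were lower and 2.95% higher with LOC3. The other 6 stayed under 2-fold by their brightest probes, among them Ptgs2, which carried the largest deposited ratio of the 10 genes to unchallenged macrophages, 142-fold with LPS. Hpgd was not well above background on any array.

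Promoter sequences are shown for Ptgs2, as the member with the largest LPS ratio, and for Ptgs1, Ptger4 and Alox5, the members lower by 2-fold or more with both strains. RefSeq (GRCm38.p6) promoter windows were found for 9 of the 10 genes, all but Alox5ap. Each line runs 5′ to 3′ from 250 bases before the annotated start to 30 bases after it, and capitals mark the letters that matched any of 9 motifs on either strand.
Ptgs2, chr1:150099781-150100060, plus strand: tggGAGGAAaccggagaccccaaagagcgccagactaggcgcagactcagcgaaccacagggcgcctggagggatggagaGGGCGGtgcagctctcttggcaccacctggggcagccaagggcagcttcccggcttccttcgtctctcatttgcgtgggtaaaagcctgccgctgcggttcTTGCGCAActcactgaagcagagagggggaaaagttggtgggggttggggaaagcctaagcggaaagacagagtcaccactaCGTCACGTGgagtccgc
Ptgs1, chr2:36230176-36230455, plus strand: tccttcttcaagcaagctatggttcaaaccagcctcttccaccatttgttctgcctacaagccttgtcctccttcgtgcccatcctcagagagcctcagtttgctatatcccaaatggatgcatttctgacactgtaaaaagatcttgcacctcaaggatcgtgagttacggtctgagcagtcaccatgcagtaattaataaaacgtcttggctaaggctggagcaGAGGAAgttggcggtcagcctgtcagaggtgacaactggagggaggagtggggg
Ptger4, chr15:5244158-5244437, minus strand: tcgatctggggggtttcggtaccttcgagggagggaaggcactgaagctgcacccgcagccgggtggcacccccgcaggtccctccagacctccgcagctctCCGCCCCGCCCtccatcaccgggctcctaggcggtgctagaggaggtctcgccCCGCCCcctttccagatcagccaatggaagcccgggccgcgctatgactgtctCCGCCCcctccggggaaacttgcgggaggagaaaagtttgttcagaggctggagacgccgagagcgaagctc
Alox5, chr6:116461149-116461428, minus strand: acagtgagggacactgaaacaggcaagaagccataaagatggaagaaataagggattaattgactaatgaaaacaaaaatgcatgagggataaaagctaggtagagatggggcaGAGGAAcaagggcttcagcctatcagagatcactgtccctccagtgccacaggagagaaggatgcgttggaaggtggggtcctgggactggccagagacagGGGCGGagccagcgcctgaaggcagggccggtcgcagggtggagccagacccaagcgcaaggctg

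In the Ptgs2 window the E-box CACGTG began at base 17 after the start, sharing letters with the core of the cAMP response element, TGACG, read on the reverse strand from base 14. The C/EBP motif, TTGCNNAA, lay at -69 and reads the same on both strands there, the GC box GGGCGG lay at -170, and the PU.1 core GAGGAA lay at -247. The Ptger4 window held the GC box 4 times, at -148, -143, -95 and -42, always on the reverse strand, and the first 2 of these share a base. Alox5 carried 1 GC box at -35 and GAGGAA at -136, and Ptgs1 carried GAGGAA at -24. Such letters are common: of the 32841 promoter windows in the RefSeq table, cut to the same length, 34.7% held GGGCGG, 26.0% GAGGAA, 19.9% TGACG, 10.4% TTGCNNAA and 6.80% CACGTG. The other motifs searched were AP-1 (TGANTCA, in 7.46% of windows), TATAAA (13.1%), the interferon-stimulated response element (3.28%) and NF-kB (7.94%), and none of these 4 matched in the printed windows. A match here is a description of letters only.

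Of the 3 arrays, which lay on 1 slide in 1 scan, 51.9% (LPS), 50.4% (LOC1) and 47.8% (LOC3) of probes were well above background, and none of the spots was saturated. Differences between arrays are given below on the log2 scale after each array was divided by its own 75th percentile (544 for LPS, 504 for LOC1 and 508 for LOC3, in units of intensity), and each gene is represented by its brightest probe. The technical SD was read from probes printed at least 5 times, typically 10. It was 0.06 for bright probes, 269 of them, in either comparison with LPS. For dim probes, of which only 10 were used, it was 0.27 (LOC1) and 0.33 (LOC3). This SD leaves out variation between cultures. The error model of the scanner software gives a wider SD, 0.20 for the difference of a bright probe. The log2 differences from LPS of Actb were 0.03 (LOC1) and 0.08 (LOC3), and those of Gapdh 0.26 and 0.30. Of 10 macrophage markers, 10 were well above background with LPS and 9 with each strain. The exception was Mrc1, at 53.3 with LPS, 12.8 with LOC1 and 20.4 with LOC3. The summed intensity of the 10 markers ran from 415690 with LOC1 to 519428 with LPS. The log2 differences of the other 9 macrophage markers from LPS ran from -0.89 (Csf1r) to 0.56 (Adgre1) for LOC1 and from -0.70 to 0.38, for the same genes, for LOC3. Their part in the differences of the 10 genes was not tested, and in RNA of whole cultures fewer cells of a state and less RNA per cell cannot be told apart. Among markers of other cell types, 2 of 4 for T cells (Cd3e and Cd4) were well above background on every array, with summed intensities from 1160 to 1299, as were Elane and S100a8 of 4 for neutrophils (603 to 653) and 3 of 4 for fibroblasts (98.0 to 133). Of 5 epithelial and 4 mast cell markers at most 1 each was, with sums from 20.4 to 68.8. Epcam was well above background with LPS alone and Tpsb2 on every array. Cdh1, Cpa3, Cd8a, Ly6g and Col3a1 were not on any array, so each of these lists held both kinds. Whether cells of other types were present was not tested.

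**Figure D1:**
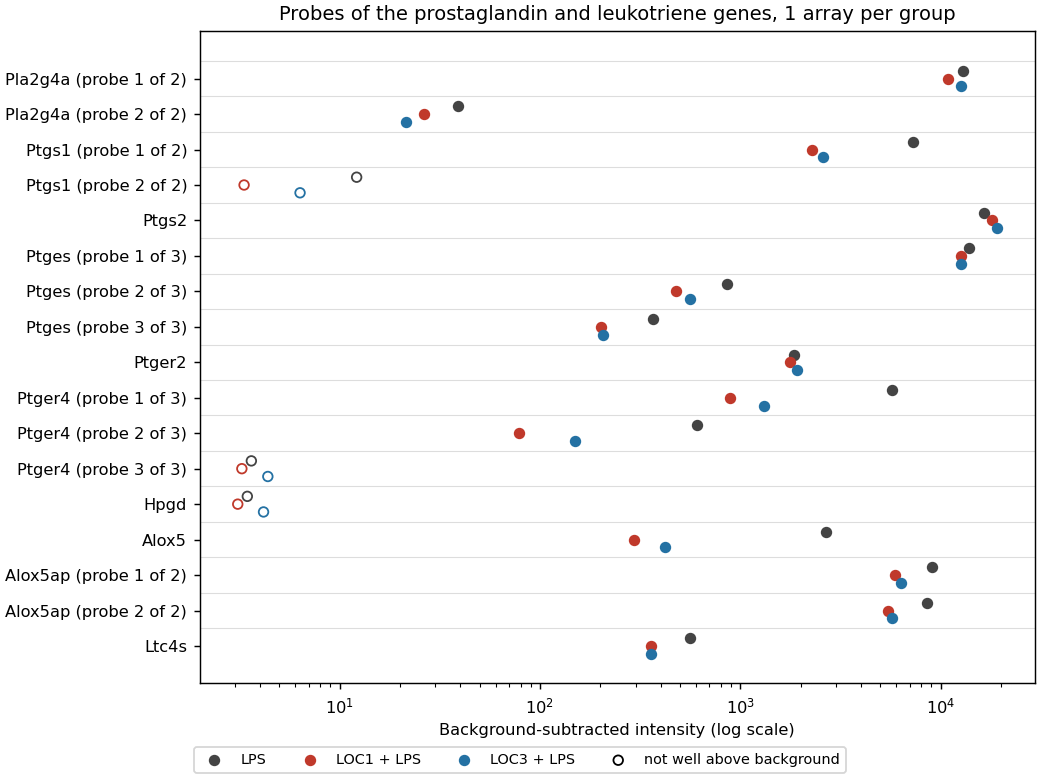
Intensity of every probe of the 10 genes on the 3 arrays, on a log axis, with open circles for signals not well above background. The points of Ptgs1 probe 1, Ptger4 probes 1 and 2 and Alox5 with LPS lie far to the right of those with LOC1 and LOC3, those of Ptgs2 and Ptger2 lie close together, and Hpgd is open on all 3 arrays.

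Pla2g4a, which releases arachidonic acid, differed little between the groups. Its brighter probe, at chr1:151676814-151676873 in mm9, the build of the probe positions, gave an intensity of 12862 on the LPS array, 10915 on the LOC1 array and 12692 on the LOC3 array. After scaling, the log2 difference from LPS was -0.13 for LOC1 and 0.08 for LOC3, both past the technical SD and within the SD of the error model, and both strains lay on 1 side of LPS under 3 alternatives (0.09 and 0.27 with median scaling). The other probe was dim, with 39.0, 26.4 and 21.6, and its log2 differences were -0.46 and -0.75.

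The cyclooxygenases differed from each other. Ptgs1, at chr2:36107644-36107703, gave 7283 on the LPS array against 2288 after LOC1 and 2598 after LOC3, so that both strains lay well below LPS and close to each other. These are log2 differences from LPS of -1.56 (2.95-fold lower) and -1.39 (2.62-fold lower). The other Ptgs1 probe had 12.2, 3.34 and 6.35, not well above background on any array, and gives no fold. Ptgs2, at chr1:151954744-151954803, gave 16461 on the LPS array, 18028 after LOC1 and 19035 after LOC3. Its log2 differences, 0.24 and 0.31, are past the technical SD and far under 2-fold. Those of the reference genes were 0.26 and 0.30 for Gapdh and 0.03 and 0.08 for Actb.

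The 3 probes of Ptges, the terminal prostaglandin E2 synthase induced together with Ptgs2 in macrophages, disagreed. The brightest, at chr2:30744995-30745054, gave 13862 on the LPS array, 12641 after LOC1 and 12635 after LOC3, which is -0.02 and -0.03 on the log2 scale. The next had 857, 479 and 563 in the same order, or -0.73 and -0.51. The dimmest had 369, 201 and 207, with log2 differences of -0.77 and -0.73. The brightest probe thus puts Ptges level with LPS in both groups, and the other probes put it lower, at under 2-fold.

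The prostaglandin E2 receptors, both of which raise cAMP, also differed from each other. Ptger2, at chr14:45622004-45622063, gave 1846 on the LPS array, 1776 after LOC1 and 1918 after LOC3, with log2 differences of 0.05 and 0.16. Ptger4, at chr15:5183422-5183481, gave 5749 on the LPS array but only 889 after LOC1 and 1315 after LOC3. Its log2 differences from LPS were -2.58 (5.99-fold lower) and -2.03 (4.08-fold lower). A dimmer Ptger4 probe, with 609, 78.5 and 150, gave the same order, at -2.84 (7.18-fold lower) and -1.92 (3.78-fold lower). The third probe, at 3.25 to 4.38, stayed at background on all 3 arrays. Hpgd, which oxidises prostaglandin E2 to an inactive form, was at background too, with 3.46, 3.10 and 4.17 at chr8:58799399-58799458, and no fold is given for it.

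On the leukotriene side, Alox5 showed the largest difference of the 10 genes. Its probe, at chr6:116360326-116360385, gave 2667 on the LPS array against 295 after LOC1 and 419 after LOC3. Both strains were far below LPS, by log2 differences of -3.06 (8.37-fold lower) and -2.57 (5.94-fold lower). Alox5ap, which presents arachidonic acid to Alox5, had 9018, 5902 and 6318 by the probe at chr5:150099347-150099406, log2 differences of -0.50 and -0.41. Its other probe gave 8531, 5481 and 5728, log2 differences of -0.53 and -0.47. Ltc4s, at chr11:50049972-50050031, gave 560 on the LPS array, 359 after LOC1 and 360 after LOC3, or -0.53 and -0.54. All 3 leukotriene synthesis genes were therefore lower with both strains by more than the technical SD, and of these only Alox5 by 2-fold or more.

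**Figure D2:**
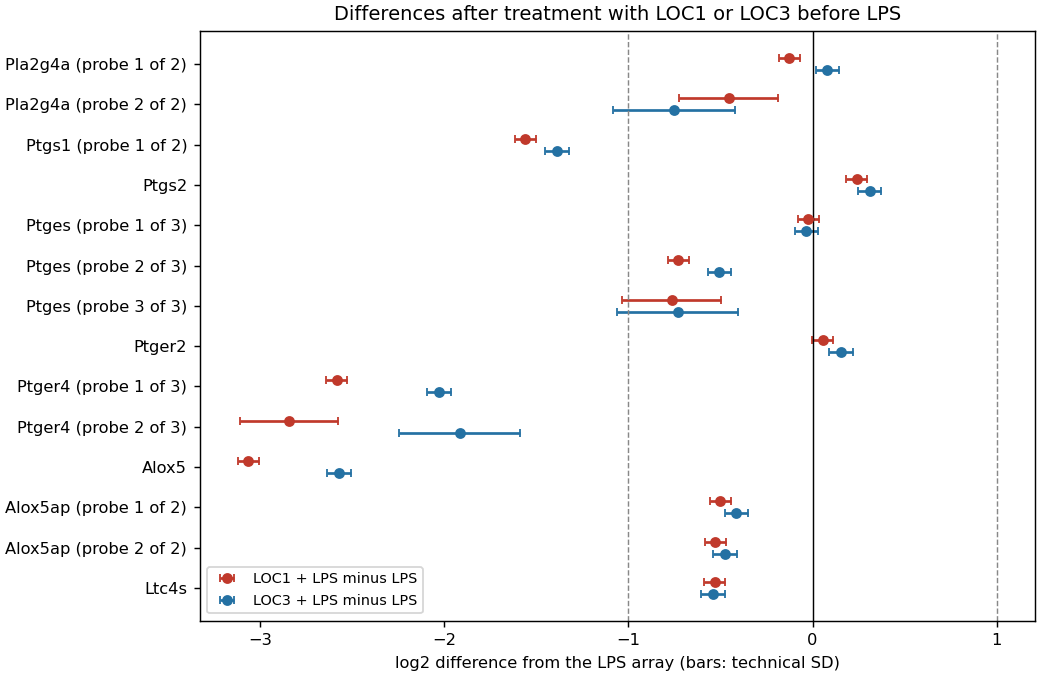
Log2 difference of LOC1 and of LOC3 from the LPS array for each member probe that could be compared, with bars of 1 technical SD and dashed lines at 2-fold. Alox5, the Ptger4 probes and Ptgs1 probe 1 lie left of the lower line with both strains, and Ptgs2 and Ptger2 lie at or just right of 0.

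The median difference of the 9 measured members was -0.50 for LOC1 and -0.41 for LOC3, beside -0.0008 and 0.03 over all genes. Below 0 lay 7 of the 9 with LOC1 and 6 with LOC3, beside 10027 of 20018 and 9163 of 19789 of all genes. In the order of all genes from the most lowered, Alox5 was number 21 with LOC1 and 22 with LOC3, Ptger4 was 47 and 66, and Ptgs1 was 238 and 242. Ltc4s and Alox5ap were at 2656 and 2861 with LOC1. The comparisons of LOC1 and LOC3 with LPS share the LPS array, so that a low or high signal on that array enters both.

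**Figure D3:**
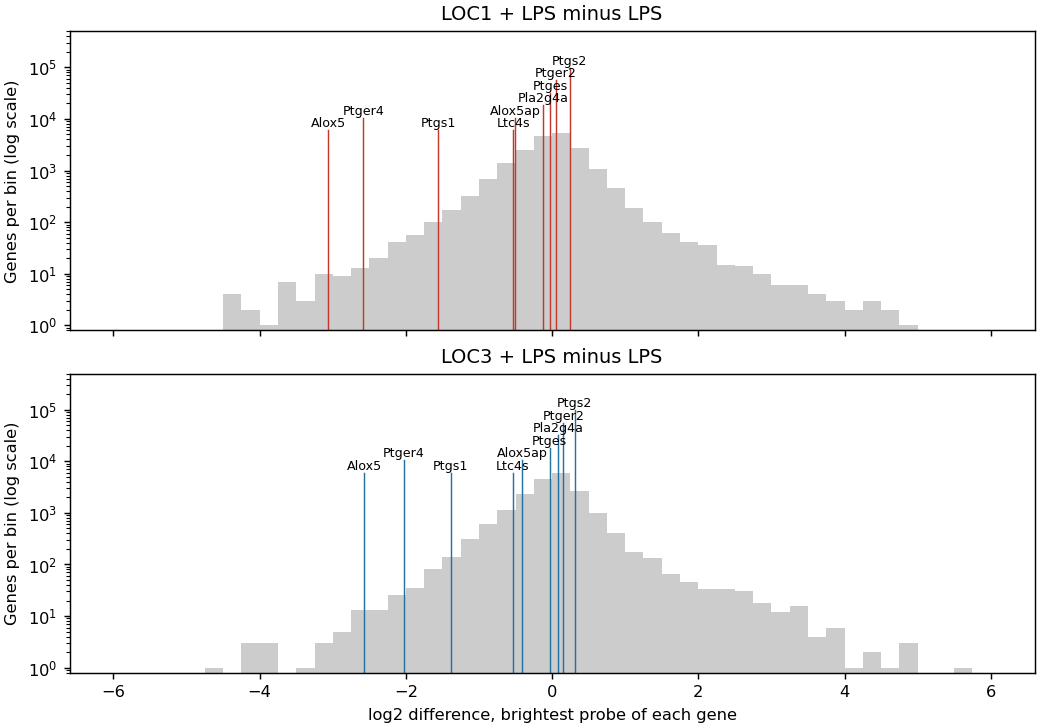
Number of genes per bin of log2 difference from the LPS array, on a log axis, for LOC1 (upper) and LOC3 (lower), with vertical lines at the 9 measured members. Alox5, Ptger4 and Ptgs1 lie in the left tail of both distributions and the other 6 members within the central part.

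Set directly against each other, the strains differed by under 2-fold for all 9 measured members. Of all genes, 0.800% were higher and 1.83% lower with LOC1 than with LOC3 by 2-fold or more. The log2 difference of LOC1 from LOC3 was -0.56 for Ptger4 and -0.49 for Alox5, beyond the technical SD of 0.06 for this pair of arrays, and Pla2g4a (-0.21) and Ptgs1 (-0.17) also passed it. Ptger2 stood at -0.10, Alox5ap at -0.09 and Ptgs2 at -0.07, nearer to that SD. For Ptges and Ltc4s the difference was 0.01, within the technical SD. Whether separate cultures would keep this order was not tested.

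The deposited log2 ratios to unchallenged macrophages place these levels against cells without LPS. They list 11 of the 17 member probes, and a value under 2-fold was left blank by the authors. With LPS alone, 4 member probes had a ratio above 0, for Ptgs2, Ptger2 and Ptger4 (both of its bright probes), and 2 had a ratio below 0, both for Ptgs1. Among all 56605 probes the shares were 7.08% above and 6.31% below. None of the Ptges probes is listed, and no LPS ratio is given here for it.

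Ptgs2 was listed at 7.15 for the LPS array, 7.43 after LOC1 and 7.50 after LOC3, and its ratio to unchallenged cells thus stood close together in the 3 groups. The LPS value is 142-fold, from an implied unchallenged intensity of 116. Ptger2 was likewise close in the 3 groups, at 2.85 (7.21-fold), 2.94 and 3.05. Ptger4 was listed at 1.63 (3.10-fold higher) with LPS by its brightest probe and left blank with both strains. Blank values can be rebuilt from the intensities and a listed ratio of the same probe, since for each pair of columns at least 99.96% of probes fitted the intensities with 1 constant to within 0.01. Rebuilt in this way, Ptger4 stood at -0.91 with LOC1 and -0.35 with LOC3. Its other bright probe gave 1.67 with LPS, -1.14 as deposited with LOC1, and -0.21 rebuilt with LOC3. Ptger4 was thus above the unchallenged level with LPS and below it with LOC1, by under 2-fold at its brightest probe. With LOC3 it lay nearer that level. The -0.21 came from a dim probe and is smaller than its technical SD of 0.33 between LOC3 and LPS.

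Ptgs1 was below the unchallenged level in all 3 groups, at -1.27 (2.41-fold lower) with LPS, -2.79 with LOC1 and -2.61 with LOC3. Its dim probe, listed at -4.08 with LPS, allows a bound of at least 12.6-fold lower, since its LPS signal was not well above background. Alox5 was blank with LPS, where its rebuilt ratio was -0.32, and was listed at -3.35 with LOC1 and -2.85 with LOC3. Alox5ap stood at -0.99 (rebuilt) with LPS, just short of 2-fold, and at -1.46 and -1.37 with the strains. Ltc4s stood at -0.52 (rebuilt), -1.01 and -1.02. Pla2g4a was the other member above the unchallenged level throughout, at 0.93 and 0.84 (both rebuilt) with LPS and LOC1 and 1.05 as deposited with LOC3. These ratios share the unchallenged array in all 3 groups, and that array was not analysed here.

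**Figure D4:**
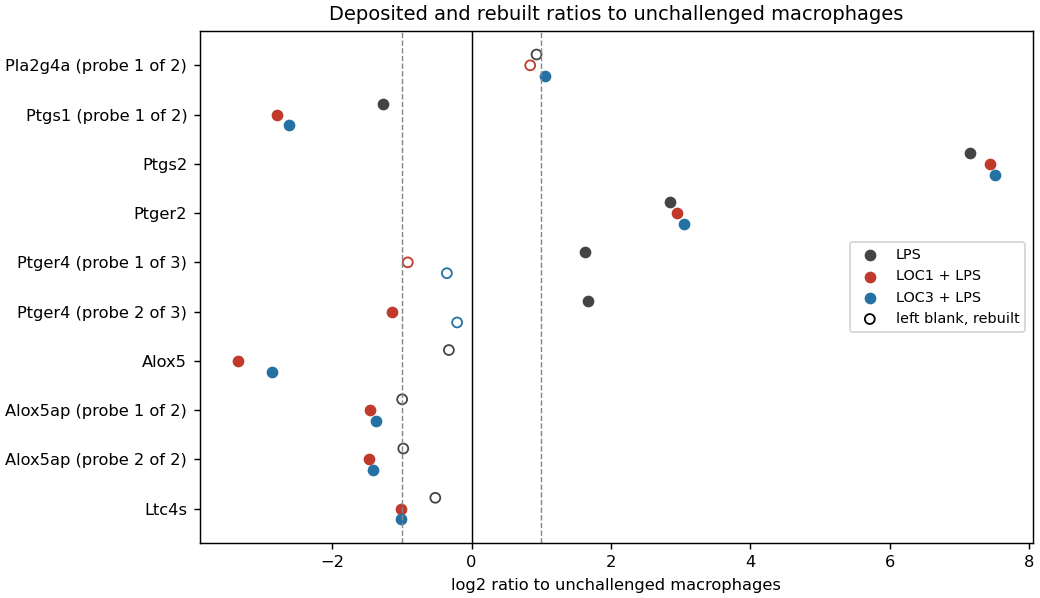
Log2 ratio to unchallenged macrophages for the listed member probes whose LPS signal was well above background, filled where deposited and open where left blank and rebuilt, with dashed lines at 2-fold. Ptgs2 and Ptger2 keep a high ratio in all 3 groups, Ptger4 is right of 0 with LPS and left of it with LOC1 and LOC3, and Ptgs1 and the leukotriene genes lie left of 0 in every group.

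Of 66 other genes of the pathway, 41 could be compared with LOC1 and 40 with LOC3. With LOC1, 1 was higher and 3 lower by 2-fold or more, with a median log2 difference of -0.07. With LOC3, 1 was higher and 2 lower, with a median of -0.12. Over all genes 2.48% were higher and 3.83% lower with LOC1, and 2.95% and 3.22% with LOC3. The medians over all genes were -0.0008 and 0.03. The brightest of the other pathway genes on the LPS array were Acsl4 and Lpcat3, which return arachidonic acid to phospholipids, the prostaglandin synthases Ptges3 and Akr1b3, and the leukotriene dipeptidase Dpep2. The first 4 differed by 0.15, -0.22, 0.15 and 0.11 with LOC1 and by 0.24, -0.22, 0.24 and 0.13 with LOC3. Other Acsl4 probes, at 4841 and 3574 on the LPS array, gave larger values, 0.62 and 0.49 with LOC1 and 0.61 and 0.46 with LOC3.

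Dpep2, which trims leukotriene D4 to E4, gave 9912 on the LPS array, 4531 after LOC1 and 5666 after LOC3, or -1.02 and -0.71. Its other probe, at 1395, 590 and 740, gave -1.13 and -0.82. Dpep3, a related dipeptidase, was dimmer at 83.9, 33.3 and 33.8, with -1.22 and -1.21. Ptgis, the prostacyclin synthase, had 67.5, 29.0 and 31.9 by its brightest probe, with -1.11 and -0.98. A second Ptgis probe, at 17.6, 20.9 and 21.3, went the other way, with 0.36 and 0.37, and the deposited LPS ratios of these probes also had opposite signs, 1.30 and -1.01. The dim signals of Hpgds, the haematopoietic prostaglandin D2 synthase, were 21.2, 40.3 and 32.0, log2 differences of 1.04 and 0.70. Pla2g4d, a phospholipase of the Pla2g4a family, had 47.0, 22.7 and 21.8, a log2 difference of -0.94 with LOC1 and, against a LOC3 signal not well above background, at least 2.01-fold lower there. Cysltr2, a cysteinyl leukotriene receptor, was well above background only with LOC3, at 74.1 against 3.73 with LPS and 3.36 with LOC1, which is at least 4.86-fold above LPS.

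The remaining measured leukotriene genes were all under 2-fold. Lta4h, which makes leukotriene B4, had differences of 0.08 and 0.07 from LPS for LOC1 and LOC3, and the leukotriene exporter Abcc1 had -0.35 and -0.34. A dimmer Abcc1 probe, at 246 on the LPS array, gave -0.82 and -0.68. Mgst2 and Mgst3, which can also conjugate glutathione, had -0.07 and -0.30, and -0.76 and -0.79. Ggt5, which turns leukotriene C4 into D4, had 0.04 and 0.85 at dim signals of 31.2, 29.7 and 52.5, and Cyp4f18, which oxidises leukotriene B4, had -0.36 and -0.58. The receptors Ltb4r1 and Cysltr1 differed by 0.61 and 0.07 with LOC1 and by 0.56 and 0.15 with LOC3. Among leukotriene synthesis genes, members included, 1 of 6 was lower by 2-fold or more with each strain, and that was Alox5. Among prostanoid receptors the only such gene was Ptger4, of 5 compared with LOC1 and 4 with LOC3. Over all genes 3.83% with LOC1 and 3.22% with LOC3 were lower by 2-fold or more.

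With LPS alone, deposited ratios of other pathway genes well above background included lower values for Dagla (-2.45) and Daglb (-2.20 and -2.60 by probes that were not its brightest), which make an endocannabinoid that is a source of arachidonic acid. The thromboxane synthase Tbxas1 was listed at -1.39, Hpgds at -1.39, the prostaglandin reductase Zadh2 at -1.84 and the lipoxygenase Aloxe3 at -2.08. Listed higher were Ptgdr2, a prostaglandin D2 receptor, at 1.90 and Pla2g4d at 1.46. The phospholipase Pla2g4c, well above background on the LOC1 array alone, was listed at -1.51 with LPS, a bound of at least 1.59-fold lower. The lipoxygenase Alox8 was listed at 2.62, which its dim implied reference limits to at least 1.14-fold higher. After treatment with the strains, Tbxas1 differed from LPS by -0.44 and -0.30, Zadh2 by -0.69 and -0.60, and Ptgdr2 by -0.21 and -0.33 with LOC1 and LOC3.

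**Figure D5:**
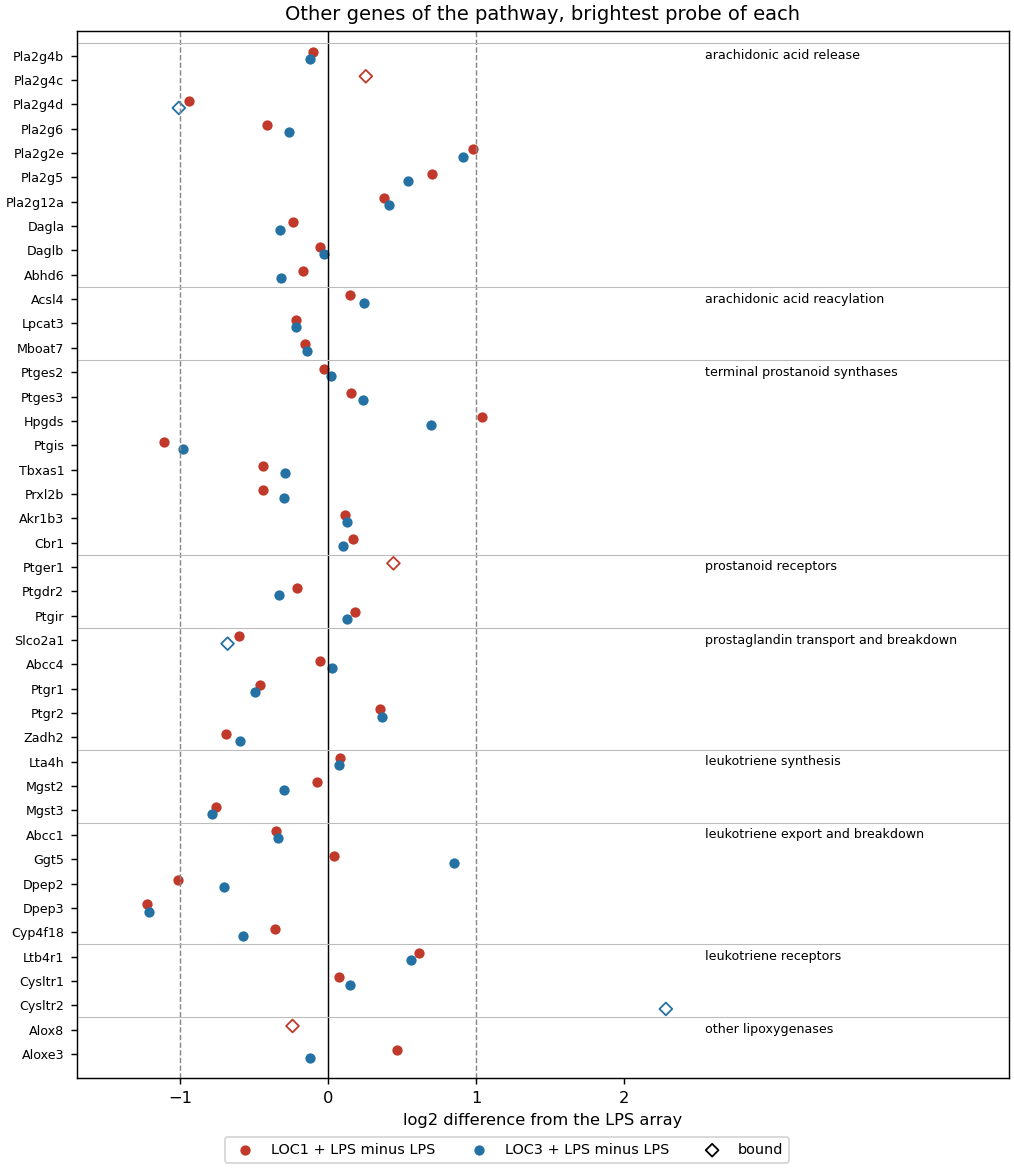
Log2 difference of LOC1 and LOC3 from the LPS array for the other pathway genes that could be compared, by their role, with diamonds for bounds and dashed lines at 2-fold. Most points lie between the dashed lines, with Dpep2, Dpep3, Ptgis, Hpgds, Pla2g4d and Cysltr2 at or past one of them in at least 1 comparison.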

How the data were processed

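RNA from RAW264.7 cultures of 3 groups was measured on 1-colour Agilent mouse arrays. The authors ran Feature Extraction, which subtracts background and corrects spatial trends, and deposited its intensity per spot, unscaled between arrays. The authors also deposited log2 ratios of each group to unchallenged macrophages for 13135 probes, made in GeneSpring. Control and outlier spots (135, 118 and 133 with LPS, LOC1 and LOC3) were left out here, repeated spots were averaged, and log2 values were scaled to the 75th percentile. Genes were compared at 2-fold if either array was well above background. A dimmer signal was set to the higher of its own value and the lowest signal that was (16.3, 14.5 and 19.8), which gives a bound. Python 3.11.15, numpy 2.4.6, pandas 2.3.3, matplotlib 3.10.9 and limma 3.58.1 were used, and the procedure was tested on simulated data. The members, the 66 other pathway genes and the markers were chosen with earlier results of these data known. Named are all members, other pathway genes past 2-fold or with a deposited LPS ratio and detected above background on 1 array or more, the 5 brightest of them, Actb and Gapdh, and markers by list, of which 1 list is not reported here; further genes were named after their values were seen. By accession, 14 of 17 member probes matched RefSeq, 0 of them with another symbol.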

Additional observations from a re-analysis of the deposited data

Results flagged for a closer look

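For Pla2g4a, the phospholipase that releases arachidonic acid, the strains lay on opposite sides of LPS: LOC1 differed from it by -0.13 and LOC3 by 0.081 on the log2 scale, both past the technical SD of 0.06. Under 3 alternatives both strains lay on the same side of LPS, at 0.09 and 0.27 with median scaling, -0.20 and -0.03 with quantile normalization, and -0.29 and -0.34 by the mean of the probes, and the dimmer probe gave -0.46 and -0.75. The difference between the strains was not tested, since each group has 1 array, and -0.13 and 0.081 lie within the SD of 0.20 that the software's error model gives.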

How the results depend on the processing

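Alox5, Ptger4 and Ptgs1 stayed lower by 2-fold or more with both strains under every alternative that gave a value: median scaling, quantile normalization, normexp with an offset of 50, the dim filters, the mean of probes, outlier spots kept and, chosen after seeing the data, the percentile over probes detected on all arrays. Their log2 differences ranged with LOC1 from -3.10 to -2.83, -2.71 to -2.36 and -1.61 to -1.34, and with LOC3 from -2.61 to -2.38, -2.08 to -1.84 and -1.44 to -1.20. Higher members numbered 0 throughout. The deposited ratios list only 3 members in both columns and gave 1 lower member with LOC1 and 1 with LOC3. At 3-fold, chosen after seeing the data for the strains, the lower members were 2 with each strain, and 0 were lower with LPS instead of 1. Pla2g4a and Ptges, under 2-fold, changed sign with both strains under some settings. Of the other pathway genes, Hpgds stayed past 2-fold with LOC1 in 7 of 8 alternatives, Dpep2 in 7, Dpep3 in 7 and Ptgis in 4, and with LOC3 Dpep3 in 7 of 8, Pla2g4d in 4 of 7 and Cysltr2 in 6 of 7. Over all genes, median scaling moved the median difference to 0.22 with both strains and, with LOC1, the split from 497 higher and 766 lower to 884 and 471, and with LOC3 left 385 lower instead of 638. Normexp gave 210 higher and 214 lower with LOC1, 247 and 163 with LOC3, and 41 and 108 between strains. Without filter or floor the counts were 1426 and 2417, 1637 and 2147, and 1182 and 1631, and at 3-fold 184 and 226, 254 and 146, and 70 and 212. Requiring both arrays above background left 291 and 423 with LOC3, and 37 and 68 between strains. The cause was not tested, beyond the fewer genes that stricter settings leave. No paired analysis was possible because each group has 1 array, and no replicate could be left out. The number of arrays limits the precision of every difference.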
